A study of Mus musculus with 54 samples.

Results

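The D-box factors and DEC repressors examined here are 7 transcription regulators that work around the core circadian clock: the PAR-bZIP activators *Dbp*, *Tef* and *Hlf*, the bZIP repressor *Nfil3* (also called E4BP4), the basic helix-loop-helix repressors *Bhlhe40* (DEC1) and *Bhlhe41* (DEC2), and *Ciart* (Chrono). They were chosen by name, with earlier results of these data known. All 7 were found among the 30031 genes of the count table and among the 18941 genes tested, which had at least 1 read in over 6 of the replicates. The suprachiasmatic nucleus (SCN), the hypothalamic seat of the master circadian clock, was cut out by laser-capture microdissection from male C3H/HeH mice of 10 to 12 weeks kept under 12 hr of light and 12 hr of darkness. Tissue was taken at zeitgeber time (ZT, hours after lights on) 2, 6, 10, 14, 18 and 22. Each of the 3 replicates per timepoint (A, B and C) was a pool of 5 mice sequenced on 3 lanes, giving 18 replicates from 54 lane samples. All groups share the strain, the sex, the age and the light cycle and differ by timepoint, and no sample came from constant darkness.

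In the core clock, CLOCK and BMAL1 bind E-boxes (CACGTG) and switch on genes whose products later repress them. DBP, TEF and HLF are activators that bind a second element, the D-box, and NFIL3 represses through the same element, so the level of D-box transcription depends on the balance between them. The DEC proteins bind E-boxes directly and act as repressors there, and CIART represses CLOCK and BMAL1 activity. In the SCN *Dbp* is a classic output of the clock whose transcript is abundant by day, and both DEC genes are expressed there.

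All 7 genes are protein coding, and their positions follow the GRCm38 build. The PAR-bZIP genes lie apart, *Dbp* at chr7:45705088-45710203 on the plus strand, *Tef* at chr15:81802421-81826863 on the plus strand and *Hlf* at chr11:90336536-90390895 on the minus strand. *Nfil3* lies at chr13:52967209-52981073 on the minus strand. The DEC genes share a chromosome, with *Bhlhe40* at chr6:108660629-108666925 on the plus strand and *Bhlhe41* at chr6:145858243-145865558 on the minus strand. *Ciart* lies at chr3:95878503-95882251 on the minus strand.

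RefSeq promoter windows (GRCm38.p6, 250 bases before to 50 after a start) were matched for 6 of the 7 genes. *Tef* had 2 of them, and *Bhlhe40* was not matched. The E-box CACGTG, a palindrome that reads the same on both strands, occurred in 7.15% of all 32851 windows and in those of 3 members. The windows with an E-box are shown because this is the element through which CLOCK and BMAL1, the DEC proteins and CIART meet, with each E-box in capitals.

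Ciart, chr3:95882179-95882478, minus strand: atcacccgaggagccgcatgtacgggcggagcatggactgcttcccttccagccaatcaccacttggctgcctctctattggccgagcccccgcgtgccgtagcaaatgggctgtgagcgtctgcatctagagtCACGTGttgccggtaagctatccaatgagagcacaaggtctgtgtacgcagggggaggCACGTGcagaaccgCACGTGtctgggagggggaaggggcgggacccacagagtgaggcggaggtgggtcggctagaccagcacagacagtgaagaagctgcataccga

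Bhlhe41, chr6:145865371-145865670, minus strand: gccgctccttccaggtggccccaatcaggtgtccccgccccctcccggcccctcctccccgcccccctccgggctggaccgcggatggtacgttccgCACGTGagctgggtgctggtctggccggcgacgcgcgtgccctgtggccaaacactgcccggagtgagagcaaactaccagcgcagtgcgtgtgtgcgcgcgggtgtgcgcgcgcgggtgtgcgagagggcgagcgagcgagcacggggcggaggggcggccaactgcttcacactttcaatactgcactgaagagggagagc

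Tef, first window, chr15:81802423-81802722, plus strand: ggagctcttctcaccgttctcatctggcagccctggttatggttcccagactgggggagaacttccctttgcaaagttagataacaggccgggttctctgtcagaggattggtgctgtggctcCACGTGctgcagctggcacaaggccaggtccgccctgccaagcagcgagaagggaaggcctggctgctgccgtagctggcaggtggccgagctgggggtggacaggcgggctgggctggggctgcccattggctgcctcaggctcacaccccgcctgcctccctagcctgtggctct

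Tef, second window, chr15:81811164-81811463, plus strand: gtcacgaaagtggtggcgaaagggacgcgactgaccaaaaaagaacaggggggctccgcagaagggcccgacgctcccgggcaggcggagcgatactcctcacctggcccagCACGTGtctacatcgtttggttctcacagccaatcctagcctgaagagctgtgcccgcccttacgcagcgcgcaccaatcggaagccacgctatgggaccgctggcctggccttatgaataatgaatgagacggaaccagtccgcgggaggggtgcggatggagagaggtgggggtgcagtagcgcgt

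The *Ciart* window held 3 E-boxes, starting 116, 58 and 44 bases before the start, and 0.0883% of all windows held 3 or more. The *Bhlhe41* E-box began 153 bases before the start, and those of *Tef* began 127 and 138 bases before the starts of its windows. *Dbp*, *Hlf* and *Nfil3* had no CACGTG in these windows. The D-box was searched in the forms TTATGTAA (0.938% of all windows, with its reverse complement) and TTACGTAA (0.119%), and neither was in a member window. The core site of REV-ERB and ROR receptors, AGGTCA (16.3% of windows, with its reverse complement), was found in 1 member, *Nfil3*. It lay there in reverse, shown in capitals, 12 bases before the start.

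Nfil3, chr13:52980990-52981289, minus strand: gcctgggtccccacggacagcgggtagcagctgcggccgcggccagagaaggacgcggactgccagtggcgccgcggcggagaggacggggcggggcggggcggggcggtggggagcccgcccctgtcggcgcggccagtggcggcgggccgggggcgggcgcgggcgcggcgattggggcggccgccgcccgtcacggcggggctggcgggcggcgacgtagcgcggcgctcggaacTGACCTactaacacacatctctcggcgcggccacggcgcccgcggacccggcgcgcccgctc

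The *Hlf* window held the cAMP response element TGACGTCA, a palindrome found in 1.79% of all windows, 9 bases before the start.

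The replicates held between 15412981 (ZT18 C) and 35820945 (ZT14 A) counted reads. Levels are given as reads for each 1000000 reads of a library's total after TMM scaling between libraries (CPM). The SCN neuropeptide genes *Avp*, *Vip*, *Grp* and *Nms* and the SCN transcription factor gene *Six6* had reads in every replicate. Their means over the 18 replicates were 145, 1855, 166, 256 and 107 CPM. In a principal component analysis the libraries lay in 3 pairs of timepoints, ZT2 with ZT22, ZT6 with ZT10 and ZT14 with ZT18. ZT18 C, the shallowest library, stood at 23.7 on the first component, between the ZT6 and ZT10 libraries and the other ZT14 and ZT18 libraries, which ranged from -10.1 to -0.49. The study names timepoint and sequencing batch as what separated its libraries in such an analysis. It judged batch effects to be minimal, since most key clock genes peaked when they should, and reported high concordance with qPCR. The labels give no batch. A difference between these pairs and a batch that follows them cannot be told apart, so comparisons inside a pair are given separately. In bulk tissue, fewer cells of a type and less RNA per cell cannot be told apart either.

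Of the 7 genes, 6 changed with time in edgeR's quasi-likelihood test with Benjamini-Hochberg adjustment (q under 0.05), where 44.0% of all genes tested did. *Dbp*, *Hlf* and *Bhlhe41* were highest at ZT6 and *Ciart* and *Tef* at ZT2, while *Bhlhe40* and *Nfil3* were highest at ZT14. The ratio of the highest to the lowest timepoint mean was 8.12 for *Dbp*, 6.37 for *Bhlhe41*, 5.22 for *Ciart*, 4.12 for *Bhlhe40*, 2.42 for *Hlf* and 1.58 for *Tef*. *Nfil3*, with a ratio of 3.48, missed the threshold (q = 0.0639). A gene was called cycling when it also passed JTK_CYCLE, an exact rank test for a 24 hr rhythm (p under 0.05). This held for 4 members, *Dbp*, *Hlf*, *Bhlhe41* and *Ciart*, against 29.9% of all genes. A cosine fit in limma passed 3 of them, all but *Ciart* (39.6% of all genes passed that fit). Both the time test and the rhythm tests draw on differences between the pairs of timepoints. The share of the variance of a gene's 6 timepoint means that lay between pairs ran from 22.8% for *Ciart* and 46.5% for *Bhlhe41* to 78.9% for *Dbp* and 88.2% for *Bhlhe40*.

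**Figure D1:**
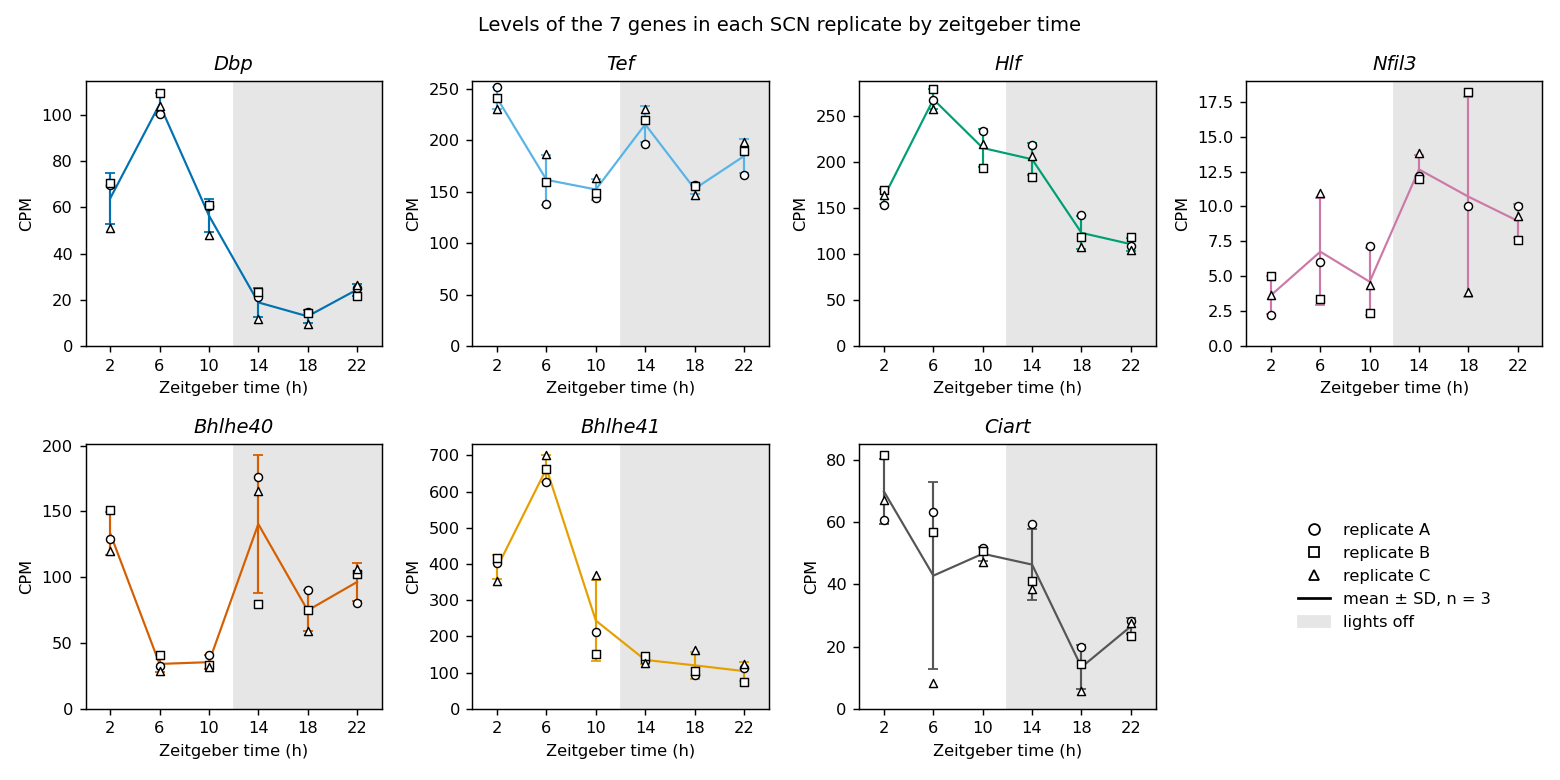
CPM of each gene (vertical axis, starting at 0) against zeitgeber time in hr (horizontal axis), with 1 panel per gene. Symbols are replicates A, B and C, lines and bars are the mean ± SD of 3 replicates, and grey marks lights off; *Dbp*, *Hlf* and *Bhlhe41* have their highest mean at ZT6, while *Bhlhe40* is at its lowest there, with a mean of 34.1 CPM.

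*Dbp* (D-box binding protein), whose product activates D-box genes, was a gene of the day. Its level was 69.8, 70.8 and 51.2 CPM in the ZT2 replicates A, B and C, 100.2, 109.7 and 104.0 at ZT6, and 60.6, 60.8 and 48.1 at ZT10. At night it was 21.4, 23.5 and 11.7 CPM at ZT14, 14.9, 14.2 and 9.52 at ZT18, and 25.3, 21.6 and 26.4 at ZT22. Every daytime replicate lay above every night-time replicate, and the 3 at ZT6 lay above all others. The ZT6 mean was 104.6 ± 4.76 CPM (SD, n = 3), against 12.9 ± 2.93 CPM at ZT18. The time test gave q = 1.68e-07 and the exact JTK_CYCLE test p = 4.55e-07 with its peak at ZT6. In the order of its timepoint means, ZT6 was higher than ZT2 (q = 0.0297, 33.8% of all genes called) and ZT10 higher than ZT22 (q = 0.00113, 26.4% of all genes called). The neighbours ZT2 and ZT10, ZT22 and ZT14, and ZT14 and ZT18 did not differ beyond their spread. Exons of *Dbp* share 539 bases with *Sphk2* on the other strand, and whether reads were assigned by strand is not given in the sources used here. *Sphk2* had its highest mean at ZT18, 43.4 ± 12.3 CPM, where *Dbp* had its lowest, and its lowest at ZT2, 8.97 ± 3.09 CPM.

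*Hlf* (hepatic leukemia factor), the second PAR-bZIP gene with a daytime maximum, changed less and later. The replicates held 153, 169 and 165 CPM at ZT2, 268, 279 and 258 at ZT6, and 233, 193 and 220 at ZT10. They then held 219, 184 and 207 CPM at ZT14, 143, 119 and 108 at ZT18, and 109, 119 and 105 at ZT22. The ZT6 replicates lay above all others, and ZT14 was still above ZT2 in all replicates, unlike for *Dbp*, where every ZT14 replicate was below every ZT2 replicate. For *Hlf* the difference between ZT14 and ZT2 did not pass edgeR's threshold (q = 0.109). Both timepoints belong to different pairs. The change with time had q = 6.42e-06, and JTK_CYCLE placed the peak at ZT10 (exact p = 6.35e-04). The fitted cosine peaked at 8.49 hr for *Hlf* and at 5.57 hr for *Dbp*, with ranges of 8.26 to 8.61 and 5.46 to 5.76 hr when each replicate was left out in turn. None of the neighbouring steps in the order of *Hlf* levels passed the threshold, the closest being ZT2 over ZT18 (q = 0.0524).

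*Tef* (thyrotroph embryonic factor), the third PAR-bZIP gene, had the smallest range of the 7. It held 252, 241 and 230 CPM at ZT2, 138, 159 and 187 at ZT6, and 144, 149 and 164 at ZT10. The night-time replicates held 196, 219.5 and 230 CPM at ZT14, 156, 155 and 147 at ZT18, and 166, 189 and 198 at ZT22. High values thus occurred at ZT2 and at ZT14 with lower ones between them, and the time test passed (q = 0.0022) while JTK_CYCLE gave an exact p = 1. The ZT2 replicates were above those of ZT6, ZT10, ZT18 and ZT22 without overlap and overlapped those of ZT14. Neighbouring timepoints in the order of its levels did not differ beyond their spread, with q of 0.317 or more at each of the 5 steps.

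Levels of different genes can be set side by side only per length, here as CPM per kb of annotated exon. Summed over the 3 PAR-bZIP genes, the daytime levels at ZT2, ZT6 and ZT10 were 76.3 ± 4.64, 95.6 ± 4.05 and 70.5 ± 2.69 CPM per kb. The night-time levels at ZT14, ZT18 and ZT22 were 64.1 ± 0.74, 42.1 ± 4.10 and 48.2 ± 2.02 CPM per kb. The summed level thus varied less over the day than *Dbp* alone did. *Dbp* made up 36.6% ± 0.704 of the sum at ZT6 and 9.86% ± 3.32 at ZT14. *Tef* made up 21.4% ± 2.72 at ZT6 and 48.6% ± 2.35 at ZT22. *Hlf* stayed between 31.9% ± 2.72 at ZT2 and 47.4% ± 3.55 at ZT14. These per-length values are descriptions and were not tested. They depend on the exon length used, and with the longest transcript in place of all exons the mean level of *Dbp* over all replicates was 25.5 instead of 15.7 CPM per kb, that of *Tef* 41.9 instead of 23.4 and that of *Hlf* 32.0 instead of 27.0.

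**Figure D2:**
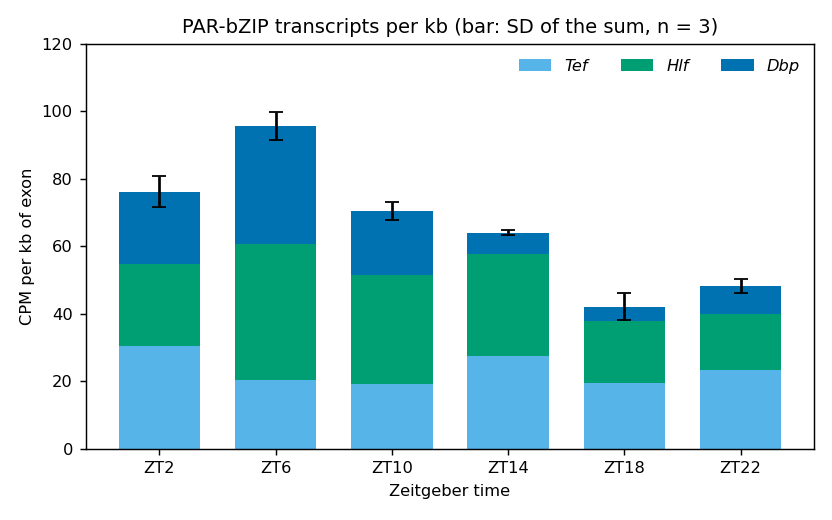
Stacked mean CPM per kb of exon (vertical axis, from 0) of *Tef*, *Hlf* and *Dbp* at the 6 timepoints (horizontal axis), with error bars for the SD of the summed level over 3 replicates. The sum runs from 42.1 at ZT18 to 95.6 at ZT6, and the *Dbp* part is small from ZT14 to ZT22.

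*Nfil3*, whose product represses D-box genes, was the least abundant member per length, with a mean of 3.89 CPM per kb over all replicates, and rested on 40 to 566 reads per replicate. It held 2.26, 4.99 and 3.66 CPM at ZT2, 5.99, 3.36 and 10.9 at ZT6, and 7.13, 2.34 and 4.34 at ZT10. It held 12.2, 12.0 and 13.8 CPM at ZT14, 10.0, 18.2 and 3.91 at ZT18, and 10.0, 7.60 and 9.28 at ZT22. The ZT14 replicates lay above every daytime replicate, but ZT6 and ZT18 spread widely, with ZT18 C close to the ZT2 values. The time test missed the threshold (q = 0.0639), and JTK_CYCLE gave an exact p = 0.144. DESeq2 gave q = 0.0209, and without ZT18 C edgeR gave q = 0.0131 and JTK_CYCLE an exact p = 0.0368. The edgeR time test also passed with a filter of 10 reads in every replicate (q = 0.0306) and without ZT6 C (q = 0.0310) or ZT10 A (q = 0.0444). Under every other alternative edgeR missed the threshold, with q up to 0.142 without ZT2 C. Of the 12 comparisons between pairs of timepoints, 1 passed for *Nfil3*, ZT14 over ZT2 (23.8% of all genes called).

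Within a library, the ratio of *Dbp* to *Nfil3* is not touched by the scaling between libraries. Per kb, it was 13.3 ± 6.56 at ZT2, 13.3 ± 8.00 at ZT6 and 10.3 ± 6.38 at ZT10. It was 1.03 ± 0.403 at ZT14, 1.06 ± 0.562 at ZT18 and 1.85 ± 0.121 at ZT22. Day replicates ranged from 5.75 to 22.1 and night replicates from 0.53 to 1.93, without overlap. The size of these ratios, though not their order, depends on the exon length used. All exons of *Dbp* span 2993 bases and its longest transcript 1837, while *Nfil3* has 2026 bases either way. Inside the pairs, the log2 ratio was higher by 2.74 at ZT2 than at ZT22 in an exact two-sided permutation test (p = 0.1, the smallest that 3 against 3 replicates allow). It differed by 0.36 between ZT6 and ZT10 (exact permutation p = 0.6) and by 0.02 between ZT14 and ZT18 (exact permutation p = 1).

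*Bhlhe41* (DEC2), an E-box repressor, was the most abundant member per length in every replicate of ZT2 and ZT6. It held 403, 416 and 353 CPM at ZT2, 628, 662 and 701 at ZT6, and 211, 150.2 and 369 at ZT10. It held 132, 146 and 126 CPM at ZT14, 94.0, 103.6 and 163 at ZT18, and 113, 74.8 and 125 at ZT22. The ZT6 replicates were the highest and, as for *Dbp*, did not overlap those of any other timepoint. ZT10 C stood far above the other ZT10 replicates and within the range of ZT2. The time test gave q = 1.15e-06 and JTK_CYCLE an exact p = 8.53e-05 with the peak at ZT6. In the order of its levels ZT6 was higher than ZT2 (q = 0.0376) and ZT10 higher than ZT14 (q = 0.0392, 16.8% of all genes called), while the neighbouring steps from ZT14 to ZT18 and from ZT18 to ZT22 did not pass.

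*Bhlhe40* (DEC1), its close relative, was low where *Bhlhe41* was highest. It held 129, 151 and 120 CPM at ZT2, 32.8, 41.1 and 28.3 at ZT6, and 41.2, 33.6 and 31.4 at ZT10. It held 176, 79.7 and 165 CPM at ZT14, 89.9, 74.9 and 59.4 at ZT18, and 80.2, 102.5 and 106.4 at ZT22. The 6 replicates of ZT6 and ZT10 lay below all 12 of the other timepoints, and ZT14 B lay far below the other ZT14 replicates. The time test passed (q = 7.40e-06) and JTK_CYCLE did not (exact p = 0.481). ZT18 was higher than ZT10, the next timepoint in the order (q = 0.0107, 12.8% of all genes called), and the steps among ZT14, ZT2, ZT22 and ZT18 did not pass. The low timepoints form a pair of their own, and 88.2% of the variance of the *Bhlhe40* timepoint means lay between pairs. Inside the pairs, the ZT2 replicates lay above those of ZT22, while those of the other pairs overlapped. An antisense transcript, *0610040F04Rik*, shares 118 exon bases with *Bhlhe40* and had at most 1.54 CPM in any replicate. *Bhlhe41* shares 1280 exon bases with *Gm43909*, and *Tef* shares 193 with *Gm17597*, each on the other strand. Neither of these overlapping genes was among the genes counted, so their levels are not known here.

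Per kb, there were 14.0 ± 3.06 *Bhlhe41* reads for each *Bhlhe40* read at ZT6, 4.98 ± 2.81 at ZT10 and 2.06 ± 0.133 at ZT2. At night the ratio was 0.781 ± 0.434 at ZT14, 1.21 ± 0.627 at ZT18 and 0.772 ± 0.240 at ZT22. Every daytime replicate was above every night-time replicate, though the lowest at ZT2 (1.923) and ZT18 C (1.916) lay close. The size of these ratios also depends on the exon length used. All exons of *Bhlhe41* and *Bhlhe40* span 6720 and 4705 bases, and their longest transcripts 6133 and 3113. Inside the pairs, the log2 ratio was higher by 1.46 at ZT2 than at ZT22 and higher by 1.61 at ZT6 than at ZT10 (exact permutation p = 0.1 each, the smallest possible), and differed by -0.64 between ZT14 and ZT18 (exact permutation p = 0.3). That last difference moved to -0.42 without ZT14 A, -1.06 without ZT14 B and -0.24 without ZT18 C.

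**Figure D3:**
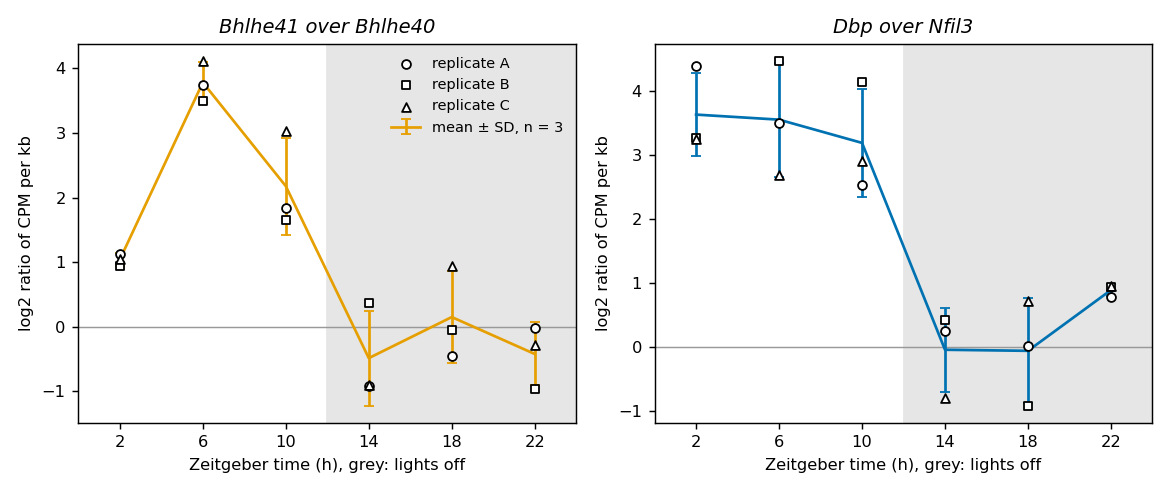
Log2 ratio of CPM per kb (vertical axes) of *Bhlhe41* over *Bhlhe40* and of *Dbp* over *Nfil3* against zeitgeber time in hr (horizontal axes), with symbols for replicates and lines for the mean ± SD (n = 3). Both ratios are higher at ZT2, ZT6 and ZT10 than at ZT14, ZT18 and ZT22, and the 2 sides lie closest for *Bhlhe41* over *Bhlhe40* between ZT2 and ZT18 C.

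*Ciart*, whose product represses CLOCK and BMAL1, held 60.7, 81.3 and 67.2 CPM at ZT2, 63.2, 56.7 and 8.33 at ZT6, and 51.6, 50.5 and 47.3 at ZT10. It held 59.2, 41.2 and 38.5 CPM at ZT14, 19.9, 14.4 and 5.80 at ZT18, and 28.3, 23.5 and 27.6 at ZT22. ZT18 was the lowest timepoint, and its replicates lay below those of every timepoint other than ZT6. ZT6 C, with 176 reads where ZT6 A and B had 1458 and 1197, stood far from its group. *Ciart* changed with time (q = 0.0145) and was called cycling (exact JTK_CYCLE p = 0.0239, peak ZT6). Without ZT6 C the time test gave q = 1.68e-04. The cycling call was lost without ZT18 A or B (exact JTK_CYCLE p = 0.0662 each) or C (p = 0.0871).

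Of the 84 comparisons of a member between timepoints of different pairs, 45 passed the threshold, against 23.2% over all genes in the same 12 comparisons. They were 10 for *Dbp*, 9 each for *Bhlhe40* and *Bhlhe41*, 8 for *Hlf*, 5 for *Tef*, 3 for *Ciart* and 1 for *Nfil3*. Inside the pairs 2 of 21 passed, against 0.216% over all genes.

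Across lights on, from ZT22 to ZT2, 1 of the 7 genes passed the threshold, against 0.0317% of all genes (6 genes). This was *Bhlhe41*, higher at ZT2 (390.4 ± 33.2 CPM) than at ZT22 (104.1 ± 26.1) by a log2 difference of 1.91. The call was lost without ZT2 B or any single ZT22 replicate. *Dbp* lay just outside it at 63.9 ± 11.03 against 24.4 ± 2.56 CPM (log2 difference 1.39, SE 0.24, q = 0.0549). The other log2 differences of ZT2 minus ZT22 were 1.40 (SE 0.50) for *Ciart*, 0.55 (SE 0.14) for *Hlf*, 0.47 (SE 0.25) for *Bhlhe40* and 0.38 (SE 0.14) for *Tef*, and -1.30 (SE 0.55) for *Nfil3*. All 7 members had replicates that did not overlap between ZT2 and ZT22, against 11.6% of all genes. Of them 6 were higher at ZT2 (5.64% of all genes) and *Nfil3* was higher at ZT22 (5.98%). An unadjusted p under 0.05 was reached by 6 members, all but *Bhlhe40*, and by 3.59% of all genes. The median over the members was 0.55, and over all genes -0.01. DESeq2 called 3 members, *Bhlhe41*, *Dbp* (q = 1.74e-05) and *Hlf* (q = 9.82e-04), and 0.218% of all genes it gave a q.

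Between mid and late day, ZT6 and ZT10, edgeR called none of the 7 genes and 0.0475% of all genes (9 genes). An unadjusted p under 0.05 was reached by 3 members (10.8% of all genes). These were *Bhlhe41*, with a log2 difference of 1.45 (SE 0.28, q = 0.0968), *Dbp*, with 0.89 (SE 0.24, q = 0.277), and *Hlf*, with 0.32 (SE 0.14, q = 0.438). The same 3 were higher at ZT6 without overlap, as were 5.50% of all genes. DESeq2 called *Bhlhe41* (q = 3.26e-04) and *Dbp* (q = 0.0216), and 1.44% of all genes. *Bhlhe41* also passed in edgeR without ZT10 C, its high ZT10 replicate (log2 difference 1.88, q = 0.0188), and without ZT18 C (q = 0.0365). The median over the members was 0.32, and over all genes -0.03.

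Between early and mid night, ZT14 and ZT18, all 7 genes had the higher mean at ZT14, and 1 passed the threshold, against 0.570% of all genes (108 genes). This was *Hlf*, with 203 ± 17.5 CPM at ZT14 and 123 ± 17.8 at ZT18, a log2 difference of 0.72 (SE 0.14, q = 0.0309). The call was lost without any of the ZT14 replicates and without ZT18 B or C, with q between 0.0771 and 0.159. An unadjusted p under 0.05 was reached by 5 members, *Dbp*, *Tef*, *Hlf*, *Bhlhe40* and *Ciart* (13.5% of all genes). *Tef*, *Hlf* and *Ciart* were higher at ZT14 without overlap, as were 11.6% of all genes. *Ciart* had the largest log2 difference of the members, 1.78 (SE 0.50, q = 0.107), which passed without ZT6 C (q = 0.0178). The log2 differences were 0.91 (SE 0.25) for *Bhlhe40*, 0.55 (SE 0.24) for *Dbp*, 0.50 (SE 0.14) for *Tef*, 0.24 (SE 0.53) for *Nfil3* and 0.17 (SE 0.27) for *Bhlhe41*. Without ZT18 C the difference for *Nfil3* turned to -0.16. The median over the members was 0.55, and over all genes 0.01. DESeq2 called 4 members, *Hlf*, *Ciart* (q = 0.0109), *Bhlhe40* (q = 0.0208) and *Tef* (q = 0.0381), and 5.16% of all genes.

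**Figure D4:**
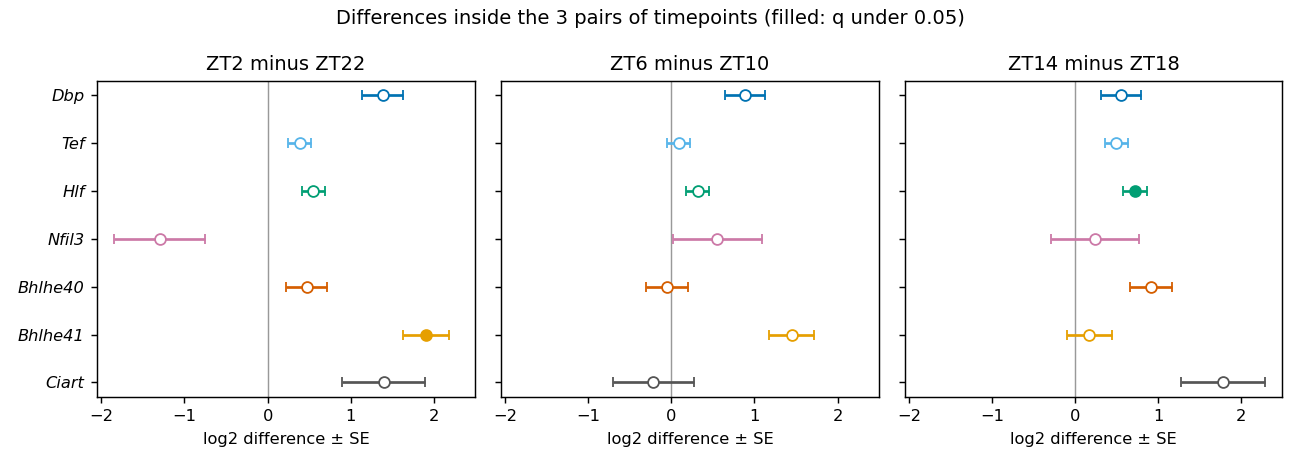
Log2 differences (horizontal axes, points, with bars for the SE) of the 7 genes (rows) for ZT2 minus ZT22, ZT6 minus ZT10 and ZT14 minus ZT18, with filled points for q under 0.05. *Bhlhe41* (1.91) is filled in the first panel, *Hlf* (0.72) in the third and no gene in the second.

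Markers of other cells moved with some of these comparisons. Of 6 markers of telencephalic excitatory neurons, all tested, 1 (*Slc17a7*) was higher at ZT14 than at ZT18 (log2 difference 1.98, q = 0.0352), where 0.570% of all genes passed. The summed level of the 6 markers ran from 99.8 to 212 CPM at ZT14 and from 25.3 to 63.8 at ZT18. *Emx1* and *Neurod2*, both in that list, were at 0 in at least 1 replicate. The same list summed to between 40.8 and 82.7 CPM at ZT2 and between 57.4 and 230 at ZT22, and to between 16.3 and 21.04 at ZT6 and between 42.7 and 77.7 at ZT10. The 10 SCN neuron markers summed to between 1535 and 2132 CPM at ZT14 and between 2208 and 2592 at ZT18, and ran higher at ZT6 and ZT10, from 4295 to 5550. Of these 10 markers 9 were called cycling (29.9% of all genes), and *Vip* alone had a mean of 1855 CPM. *Prokr2* had its lowest mean at ZT6 (142 CPM). This sum is therefore not a measure of SCN neuron content. The 8 oligodendrocyte markers summed to between 1315 and 3105 CPM at ZT6 and ZT10 and between 4798 and 6139 at ZT14 and ZT18, and all 8 changed with time. The 7 astrocyte markers summed to between 1994 and 2698 CPM at ZT6 and ZT10 and between 2930 and 5688 elsewhere. The 7 microglia markers, 7 endothelial markers and 8 tested of 10 markers of neighbouring hypothalamic neurons summed to at most 256, 206 and 90.6 CPM in any replicate. Of the last list, *Hcrt*, *Agrp*, *Crh*, *Gnrh1* and *Pmch* were at 0 in at least 1 replicate. The part of these cells in the members' differences was not tested.

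In a list of 12 clock genes with E-boxes, 9 changed with time and 7 were called cycling, against 44.0% and 29.9% of all genes tested. *Avp*, which encodes vasopressin, had the smallest q (3.25e-10), with 454 ± 24.03 CPM at ZT6 and 5.37 ± 3.02 at ZT22. *Per2*, a core repressor of the clock, was next (q = 3.03e-07), with 123 ± 59.97 CPM at ZT6 and 10.9 ± 4.02 at ZT22. Inside the pairs 2 of the 12 passed, both between ZT14 and ZT18, where 0.570% of all genes passed. Both were higher at ZT14, namely *Per1* (log2 difference 1.45, SE 0.29, q = 0.0324) and *Per2* (1.32, SE 0.29, q = 0.047). *Hlf* passed in the same comparison and in the same direction.

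In a list of 11 genes with D-boxes, which shares 6 genes with the E-box list, 10 changed with time and 9 were called cycling, against the same 44.0% and 29.9% of all genes. *Per2* and *Rora*, which encodes an activating receptor of the ROR element, had the smallest q, and *Rora* went from 156 ± 18.2 CPM at ZT18 to 554 ± 88.9 at ZT6 (q = 5.33e-07). The list did not share one timing. *Pdxk* and *Alas1* had their highest mean at ZT14 and *Por* at ZT18, while the other genes of the list were highest by day. The median log2 differences over the D-box list were 0.66 for ZT2 minus ZT22, 0.22 for ZT6 minus ZT10 and 0.37 for ZT14 minus ZT18, beside members' medians of 0.55, 0.32 and 0.55. These lists were compiled with earlier results of these data known.

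The C/EBP genes, bZIP relatives of *Nfil3* and the PAR-bZIP genes, were mostly low. Of 4 tested, 2 changed with time, *Cebpb*, with 7.86 ± 3.87 CPM at ZT6 and 0.813 ± 0.520 at ZT22 (q = 0.00127), and *Cebpd*, with at most 2.26 CPM in any replicate (q = 0.0437), and none was called cycling, against 44.0% and 29.9% of all genes. Among 8 tested HES and HEY genes, the relatives of the DEC genes, 4 changed with time and 3 were called cycling, shares near those of all genes (44.0% and 29.9%). *Hes6* reached 56.7 ± 14.7 CPM at ZT6 and had its lowest mean, 7.09 ± 0.705 CPM, at ZT22 (q = 2.62e-07), the timepoints at which *Bhlhe41* was highest and lowest. *Hey1* had its highest mean at ZT14 (22.0 ± 1.41 CPM), as *Bhlhe40* did, and its lowest at ZT2 (5.81 ± 0.821 CPM, q = 6.17e-04). No gene of either list passed inside a pair.

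Among 14042 other genes with a mean of at least 1 CPM, the profiles most like each member's were ranked by Pearson's r of log2 CPM over the 18 replicates, which share libraries and so also share any difference between the pairs of timepoints. For *Dbp* they were those of *Prok2*, the gene of a secreted SCN output peptide (r = 0.955), and *Rasl11b* (0.953). *Prok2* passed inside a pair as well, being higher at ZT2 than at ZT22 by a log2 difference of 3.93 (SE 0.50, q = 0.00741). *Rgs16*, a regulator of G-protein signalling and an SCN marker, passed in 2 pairs, being higher at ZT2 than at ZT22 (q = 0.0394) and higher at ZT6 than at ZT10 (q = 0.0228). For *Bhlhe41* the most similar were *Pdcd4* (r = 0.958) and *Sik1* (0.947), a kinase gene of the cAMP pathway. With the mean of each pair of timepoints taken out, r was 0.980 for *Pdcd4* and 0.907 for *Sik1*. For *Hlf* they were *Apba1* (0.932) and *Per1* (0.913), and for *Tef* *Arhgap26* (0.905) and *Peak1* (0.882). For *Bhlhe40* they were *Nrcam* (0.935) and *Med12* (0.933), which fell to 0.653 and 0.725 with the pair means taken out. *Nfil3* was most like *Rgs11* (0.847) and *Tmem104* (0.834), and *Ciart* most like *Ncl* (0.846) and *Zfp711* (0.841). Neither *Ncl* (q = 0.247) nor *Zfp711* (q = 0.751) passed edgeR's time test.

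Among the members themselves, the highest r was that of *Dbp* and *Bhlhe41* (0.846, and 0.771 with the pair means taken out), followed by *Tef* and *Bhlhe40* (0.724 and 0.579). *Dbp* and *Nfil3* had the lowest r (-0.522, and -0.163 with the pair means taken out), and the DEC genes had r = -0.44 with each other (0.184 with the pair means taken out). *Tef* and *Hlf* had r = -0.09 over all libraries and 0.780 with the pair means taken out. These correlations are descriptions over 18 libraries, without a test.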

How the data were processed

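Count tables of laser-captured SCN polyA RNA, amplified with the SMARTer protocol, were used, with 6 timepoints and 3 replicates each. The authors trimmed the reads, aligned them with GSNAP to GRCm38, counted them per gene with HTSeq 0.5.4p1 and combined the lanes; these are the deposited raw counts. A second deposited table holds the counts divided by DESeq2 size factors (a normalised signal), from which 100% of values gave whole reads (tolerance 0.001). The tables' reads were identical for 92.6 to 95.1% of well-counted genes at 4 timepoints and for 7.16 to 19.3% at ZT6 and ZT10.

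Genes read at least once in over 6 replicates entered edgeR 4.0.16 (TMM, quasi-likelihood F-tests over time and for each pair of timepoints, Benjamini-Hochberg q over 18941 genes). JTK_CYCLE ran on CPM with 6 lags and an exact null, and its p was multiplied by the 6 lags and not adjusted over genes. DESeq2 1.42.0 and limma 3.58.1 were alternatives. Gene models were GENCODE M21.

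The members and gene lists were chosen with earlier results of these data known. Named genes were the members, the 2 genes most like each by correlation, and from each list those passing inside a pair and the 2 with the smallest time q. Some further genes of the lists were named for their timing or low level. Replicates were pools of separate mice. Precision was judged from the spread between them.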

Additional observations from a re-analysis of the deposited data

How the results depend on the processing

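The counts of members changing with time (6 or 7 of 7) and called cycling (3 to 5) held within 1.5 times under every alternative. Counts inside the pairs were less stable. For ZT2 against ZT22 the count of 1 became 0 in a fit to the 6 replicates of the pair, 2 with DESeq2 size factors, with upper-quartile scaling, with a filter of 10 reads in every replicate or with no filter, 3 with DESeq2, and 0 to 2 on leaving out each replicate. For ZT6 against ZT10 the count of 0 became 2 with DESeq2, 1 with no filter, and 0 to 1 on leaving out each replicate. For ZT14 against ZT18 the count of 1 became 0 in the fit to 6 replicates and with no filter, 4 with DESeq2, and 0 to 2 on leaving out each replicate. The causes of these changes were not tested. Leaving out each replicate, an alternative added after seeing the data for the ratios, gave log2 ratio differences of *Dbp* to *Nfil3* from -0.093 to 0.84 for ZT6 minus ZT10, from -0.41 to 0.41 for ZT14 minus ZT18 and from 2.36 to 2.94 for ZT2 minus ZT22. For *Bhlhe41* to *Bhlhe40* the same ranges were 1.34 to 2.04, -1.06 to -0.24 and 1.19 to 1.665. With the reads of the normalised table, which differ at ZT6 and ZT10, every count was unchanged. A replicate block on the letters A, B and C gave 6 members changing with time, 4 cycling and 1, 0 and 1 differing inside the pairs, as without it. The letters were not taken as pairing, since deviations of same-letter replicates correlated between -0.129 and 0.0700 over 45 same-letter pairs, and 8 of 18 replicates correlated best with their own letter. The neighbouring steps in the order of levels were not recomputed under the alternatives. The exact permutation test of the ratios, with 3 replicates against 3, could not go below p = 0.1. *Nfil3* rested on 40 to 566 reads per replicate.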
